A study of Mus musculus with 4 samples.

Results

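The genes described here drive the cell cycle and license DNA for replication, and their promoters were examined in ATAC-seq peak lists of E14 mouse embryonic stem cells (ESCs). They were chosen by symbol alone: autosomal protein-coding genes of the GENCODE annotation, mouse release 21, that are named as a cyclin (Ccn with a letter and a number), a cyclin-dependent kinase (Cdk), a minichromosome maintenance protein (Mcm), an origin recognition complex subunit (Orc), a cell division cycle gene (Cdc) or a GINS subunit (Gins). The rule found 73 of 20807 autosomal protein-coding genes, made up of 16 cyclin symbols, 17 Cdk, 9 Mcm, 6 Orc, 21 Cdc and 4 Gins genes. The symbols of 5 other genes matched but were left out, namely Ccnb3 and Cdk16 on the X chromosome and the pseudogenes Ccnb1-ps, Ccnb2-ps and Ccnd3-ps. A name does not fix a function. Ccnb1ip1 encodes a ubiquitin ligase rather than a cyclin, Cdc42 a small GTPase, Cdc37 a chaperone partner, Cdc40 a splicing factor, and Cdc73 a subunit of an elongation complex.

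ATAC-seq uses a transposase that inserts adapters into open chromatin, and a peak is an interval where such insertions pile up. E14 ESCs grown in serum with LIF were infected with pLKO lentivirus carrying a short hairpin, selected with puromycin and then harvested. There was 1 library with a hairpin against GFP (shGFP) and 3 with a hairpin against luciferase (shLuc 1, shLuc 2 and shLuc 3), and neither hairpin has a target among mouse genes. No library of uninfected cells was analysed here, no other allele or agent was labelled, and nothing in the labels says whether the shLuc replicates came from separate cultures.

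In proliferating cells, D-type cyclins with Cdk4 or Cdk6 and E-type cyclins with Cdk2 drive entry into S phase, and A- and B-type cyclins with Cdk1 or Cdk2 carry the cell through S phase and mitosis. Licensing is the loading of the Mcm2 to Mcm7 ring onto DNA by the origin recognition complex with Cdc6 and Cdt1, and the loaded ring becomes an active helicase once Cdc45 and GINS join it. Mouse ESCs have a short G1 phase and are known for low levels of D-type cyclins and steady activity of Cdk2. Many genes of S phase are controlled through E2F sites, and many genes of mitosis through CCAAT boxes bound by NF-Y and through the cell cycle homology region (CHR).

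The 4 lists held 41943 peaks in shGFP and 17860, 41401 and 31585 peaks in shLuc 1, shLuc 2 and shLuc 3, with median widths of 603 to 663 bp. The lists give no height or score, the number of reads behind them is unknown, and shLuc 1 stands apart by its short list. A gene was said to have a promoter peak when a peak lay within 1 kb of the start of any of its annotated transcripts. With 1 library against 3, an exact permutation test cannot give a p below 0.25, so no test was run, and values are given per library. Of 10 ESC marker genes, 4, 2, 4 and 5 had a promoter peak in shGFP, shLuc 1, shLuc 2 and shLuc 3. Zfp42 and Tfcp2l1 had one in all 4, while Dppa4, Fgf4 and the defining factors Pou5f1, Nanog and Sox2 had none in any list. Among markers of other cells, promoter peaks were listed for 2, 1, 1 and 1 of 4 primitive endoderm genes, for 2, 1, 3 and 2 of 4 trophoblast genes and for 3, 2, 4 and 2 of 4 fibroblast genes. The markers thus do not single out ESCs in these lists, and a missing peak is reported below only as no listed peak in the lists analysed here.

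Nearly all of the cell cycle and licensing genes had a promoter peak. The count was 69 of 73 in shGFP (94.5%) and 64, 69 and 66 in shLuc 1, shLuc 2 and shLuc 3 (87.7%, 94.5% and 90.4%), a mean of 90.9% ± 3.45 (SD, n = 3) over shLuc. The shGFP share equalled that of shLuc 2 and thus lay within the range of the shLuc libraries. That order of libraries changed when the lists were cut to the same length. The cut keeps peaks by width and does not match depth, and the cause of the order was not tested. With each list shortened to its 17860 widest peaks the shares were 80.8%, 87.7%, 75.3% and 80.8%, with shLuc 1 highest. In these shortened lists 45 members had a peak in every list, and the shares over all autosomal coding genes were 48.4%, 48.4%, 47.4% and 47.2%. In the full lists the share over all autosomal coding genes was 61.9% in shGFP and 48.4%, 61.5% and 56.3% in shLuc 1 to 3. A peak in every library was listed for 62 members (84.9%), against 44.0% of all coding genes, and a peak in no library for 4 members (5.48%), against 34.0%. Without shLuc 1, the number with a peak in every remaining library was 66. All 4 members that account for this step, Cdk15, Cdk18, Cdc20b and Cdc45, lacked a peak in shLuc 1 alone. That pattern was shown by 4 of 73 members (5.48%) and by 9.68% of all coding genes. In the shortened lists these 4 genes also had a peak in shGFP, shLuc 2 and shLuc 3 and none in shLuc 1.

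**Figure D1:**
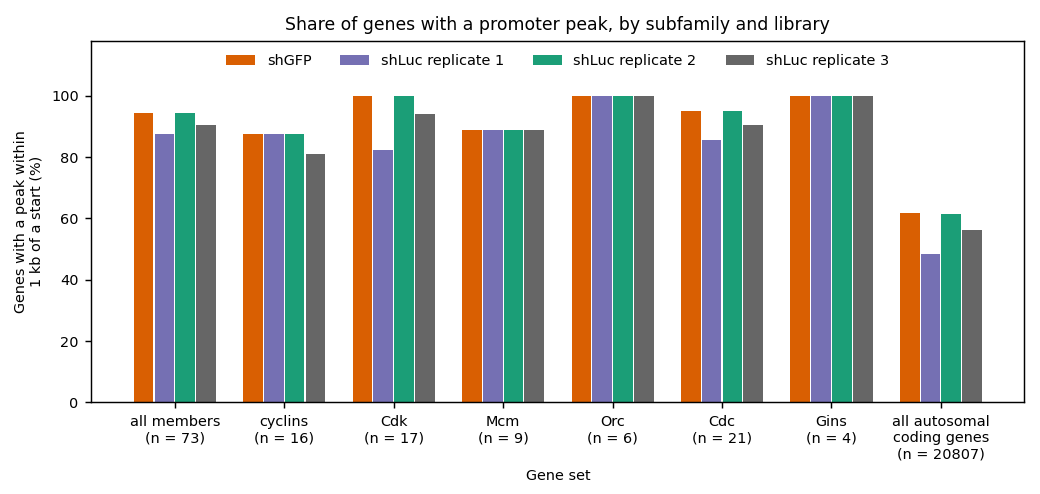
Share of genes (%, y axis from 0) with a listed peak within 1 kb of a transcript start, for all 73 members, the 6 subfamilies and all 20807 autosomal coding genes; each bar is 1 library. The Orc and Gins bars stand at 100% in all 4 libraries, the Mcm bars at 88.9%, and the lowest bar of all coding genes (48.4%) and of the members (87.7%) is that of shLuc 1.

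The share differed with the base composition of the promoters. A promoter was called CpG-rich by the bases within 500 bp of the main start. They had to have a GC content of at least 50% and an observed over expected CpG ratio of at least 0.6. The main start is the principal transcript start with the most transcripts of the gene, of any kind, starting within 100 bp. Of the members 79.5% were CpG-rich, against 47.6% of all coding genes. Among 58 CpG-rich members the shares with a promoter peak were 98.3%, 94.8%, 98.3% and 94.8% in shGFP and shLuc 1 to 3, and among 9903 CpG-rich coding genes they were 90.9%, 77.9%, 90.6% and 84.5%. A peak in all 4 libraries was listed for 93.1% of the CpG-rich members and 71.6% of the CpG-rich coding genes, and none in any library for 1.72% and 4.88%. The gap between members and background was thus smaller among CpG-rich genes. Among the other 15 members the shares were 80.0%, 60%, 80.0% and 73.3%, and among the other 10904 coding genes 35.6%, 21.6%, 35.1% and 30.7%, a larger gap in each library than among CpG-rich genes. Members also had more annotated starts (median 6, against 3 for all coding genes), and 28.8% of them had the start of another coding gene within 1 kb, against 14.9%. The part of these features in the shares was not tested.

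**Figure D2:**
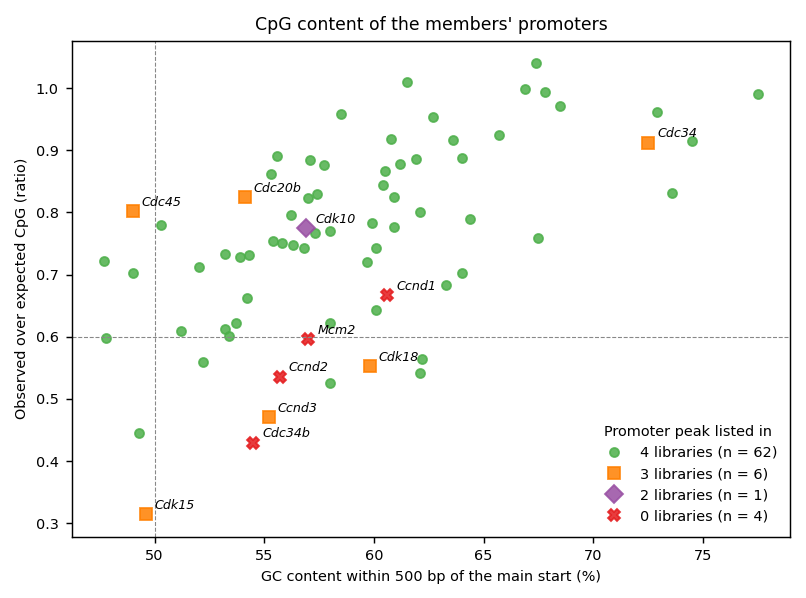
GC content (%, x axis) and observed over expected CpG (ratio, y axis) of the bases within 500 bp of the main start of each of the 73 members; colour and shape give the number of libraries with a promoter peak, and dashed lines mark the limits of 50% and 0.6. Of the 11 labelled members, which lacked a promoter peak in at least 1 library, Ccnd1, Cdk10, Cdc20b and Cdc34 lie in the CpG-rich part, at the upper right.

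The helicase ring was covered in all libraries but for Mcm2. Mcm3 to Mcm7, Mcm8, Mcm9 and Mcm10 had a promoter peak in all 4 lists, and Mcm2 in none. In the shortened lists Mcm8 was listed in 3 and Mcm10 in 2. Mcm3 had the most even peak, 847 bp wide in shGFP and 889, 854 and 842 bp in shLuc 1 to 3, centred within 33 bp of its start. The Mcm4 peak was 941, 739, 888 and 970 bp wide, and its window also holds the start of Prkdc, the DNA-dependent protein kinase gene that runs the other way. The Mcm6 peak measured 734, 670, 867 and 1134 bp. Widths were thus nearly level across libraries for Mcm3, and widest in shLuc 3 for Mcm6. Mcm5 was listed with 1413, 485, 1538 and 1380 bp and Mcm7 with 1514, 362, 1450 and 1399 bp, so that both were narrow in shLuc 1 alone. In that library the Mcm7 peak was centred 1232 bp downstream of the main start and covered a later start but not the main one. In shGFP and shLuc 2 the Mcm7 peak covered the main start, and in shLuc 3 it ended just short of it. Mcm8 and Mcm9, which form a helicase of their own used in DNA repair, had peaks of 821, 542, 697 and 739 bp and of 921, 848, 908 and 870 bp. Mcm10, an activator of the loaded ring, had peaks of 644, 506, 640 and 645 bp. As for Mcm4, another coding gene starts within 1 kb of Mcm7 (Ap4m1), Mcm8 (Trmt6) and Mcm9 (Asf1a).

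Mcm2 (chr6:88883474-88898780, minus strand) was the exception of its family. The nearest listed peak lay 3025 bp from an Mcm2 start in shGFP and 2975 bp in shLuc 2, in both at the start of Tpra1, and 27083 and 27025 bp away in shLuc 1 and shLuc 3. None of its 7 annotated starts had a peak within 1 kb. Its main promoter had a GC content of 57.0% and a CpG ratio of 0.596, just under the limit for a CpG-rich promoter, while Mcm10, with 47.8% and 0.598, and Mcm7, with 52.2% and 0.559, also fell outside that class and had a peak in all 4 libraries. Of the 50-base words around the Mcm2 start 7.07% occurred more than once in the genome. Around members with a peak in all 4 libraries the median was 0% and the highest value 20%. The part of repeated words in the missing peak was not tested.

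The 250 bases upstream of the main start are shown for Mcm2 (chr6:88898781-88899030) and for 4 helicase genes with a peak in every library, Mcm3 (chr1:20820313-20820562), Mcm4 (chr16:15637401-15637650), Mcm5 (chr8:75109319-75109568) and Mcm6 (chr1:128359665-128359914). All are on build GRCm38.p6 and written 5′ to 3′ on the strand of the gene, which is plus for Mcm5 and minus for the others. Capitals mark an E2F-like word (TTTGGCGC, TTTCGCGC or TTTCCCGC) or the NF-Y word CCAAT on either strand.
Mcm2: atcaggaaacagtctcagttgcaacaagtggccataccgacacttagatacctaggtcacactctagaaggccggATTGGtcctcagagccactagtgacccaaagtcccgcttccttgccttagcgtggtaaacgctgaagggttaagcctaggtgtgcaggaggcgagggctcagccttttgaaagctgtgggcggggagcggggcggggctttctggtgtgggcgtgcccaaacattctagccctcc
Mcm3: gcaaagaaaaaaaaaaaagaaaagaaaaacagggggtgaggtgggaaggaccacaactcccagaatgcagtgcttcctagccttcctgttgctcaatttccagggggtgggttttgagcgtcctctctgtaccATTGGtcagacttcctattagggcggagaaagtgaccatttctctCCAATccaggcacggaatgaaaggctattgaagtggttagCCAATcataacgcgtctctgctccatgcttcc
Mcm4: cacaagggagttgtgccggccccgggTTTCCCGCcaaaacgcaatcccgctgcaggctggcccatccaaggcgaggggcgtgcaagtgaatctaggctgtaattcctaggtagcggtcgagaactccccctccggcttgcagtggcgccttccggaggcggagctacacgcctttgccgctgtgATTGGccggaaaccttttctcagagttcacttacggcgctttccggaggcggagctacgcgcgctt
Mcm5: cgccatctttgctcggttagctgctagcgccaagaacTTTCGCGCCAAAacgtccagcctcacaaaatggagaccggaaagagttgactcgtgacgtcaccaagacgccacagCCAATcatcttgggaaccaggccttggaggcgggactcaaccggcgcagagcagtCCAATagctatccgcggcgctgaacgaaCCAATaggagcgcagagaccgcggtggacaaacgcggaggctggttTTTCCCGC
Mcm6: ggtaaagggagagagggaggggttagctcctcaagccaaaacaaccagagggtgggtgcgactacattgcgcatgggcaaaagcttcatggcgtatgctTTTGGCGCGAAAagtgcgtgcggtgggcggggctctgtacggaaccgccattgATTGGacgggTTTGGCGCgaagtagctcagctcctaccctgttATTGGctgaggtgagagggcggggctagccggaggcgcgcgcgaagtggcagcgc
The Mcm2 stretch holds 1 CCAAT word, on the opposite strand, and no E2F-like word, and it has 10 CpG dinucleotides. Mcm3 has fewer CpG, 5, and 3 CCAAT words. Mcm4 has 1 E2F-like word and 23 CpG, Mcm5 3 E2F-like words and 23 CpG, and Mcm6 3 E2F-like words and 20 CpG. In Mcm5 and Mcm6, a pair of E2F-like words on opposite strands overlap and appear as 1 run of capitals. A match is a description of letters and no evidence of binding, and a missing match says only that these letters are not in this window.

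Over all members, an E2F-like word stood in the upstream 250 bases of 10 of 73 genes (13.7%), against 2.00% of all 20807 coding genes and 3.31% of the CpG-rich ones. The 10 were Cdk1, Cdk2, Mcm4, Mcm5, Mcm6, Orc1, Orc3, Cdc6, Cdc25a and Gins1. Each had a promoter peak in all 4 libraries, as did 62 of all 73 members (84.9%), and a link between word and peak was not tested. No cyclin held such a word. CCAAT stood in 38 members (52.1%), against 35.4% of all coding genes, in 8 of 9 Mcm, 4 of 4 Gins, 12 of 21 Cdc, 7 of 16 cyclin, 2 of 6 Orc and 5 of 17 Cdk genes. The Orc (33.3%) and Cdk (29.4%) shares were thus not above that of all coding genes, and both rest on few genes. The CHR-like word TTTGAA was found in 9 members (12.3%), against 13.6%. They were Ccnb2, Ccnd2, Ccng2, Cdk1, Mcm2, Cdc20, Cdc25c, Cdc40 and Cdc45. The word is not capitalised in the printed sequences, and matches of different motifs did not overlap in any member.

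The origin recognition complex and GINS had a promoter peak for each subunit in every library. Orc1, an ATPase subunit of the complex, had peaks of 1135, 951, 995 and 919 bp in shGFP and shLuc 1 to 3. Orc2 had peaks of 926, 959, 906 and 1098 bp. These were the most even of the Orc genes, while Orc3, with 881, 392, 572 and 1357 bp, varied the most among the Orc genes. Orc4 measured 1360, 666, 1370 and 1487 bp, Orc5 796, 438, 715 and 867 bp, and Orc6 1384, 841, 1182 and 895 bp. In 4 cases the peak may belong to a neighbour as well as to the Orc gene, since the start of Prpf38a lies within 1 kb of Orc1, that of Rars2 of Orc3, that of Mbd5 of Orc4 and that of Vps35 of Orc6.

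GINS holds the ring and Cdc45 together. Gins1 had peaks of 749, 530, 667 and 461 bp at its main start, with another peak at a further start in each library. Gins2 was listed with 889, 870, 815 and 866 bp, Gins3 with 770, 440, 535 and 966 bp, and Gins4 with 727, 655, 878 and 671 bp. At the main starts all GINS peaks were thus below 1 kb, and Gins2 was the most even of them. Gins1 is a neighbour of Abhd12, and its main promoter is the least GC-rich of the 4, at 47.7%. The 250 bases upstream of Gins1 (chr2:150909344-150909593, plus strand) carry an E2F-like word that ends next to the start, shown here with the same marks because it is the match of that family.
Gins1: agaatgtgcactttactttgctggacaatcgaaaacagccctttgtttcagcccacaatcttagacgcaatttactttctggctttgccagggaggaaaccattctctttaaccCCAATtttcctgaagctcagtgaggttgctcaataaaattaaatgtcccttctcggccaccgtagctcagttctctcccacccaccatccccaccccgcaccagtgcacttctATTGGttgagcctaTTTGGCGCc
Cdc45, the third part of the active helicase, had peaks of 1342, 1362 and 1094 bp in shGFP, shLuc 2 and shLuc 3 and none in shLuc 1, where the nearest peak was 24313 bp away. The start of Ufd1 lies within 1 kb of it.

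**Figure D3:**
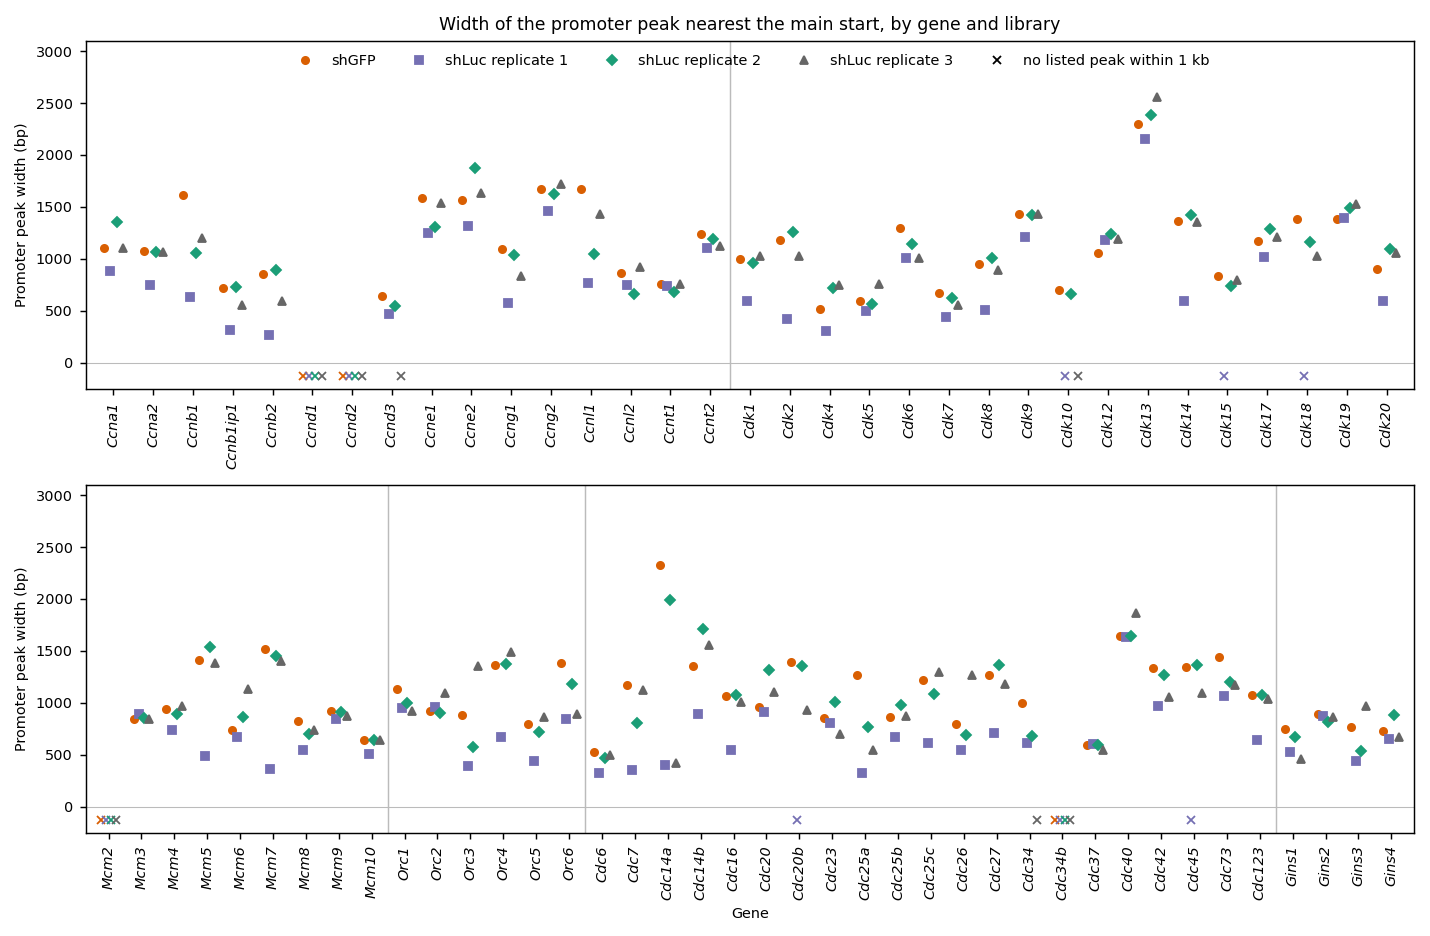
Width (bp, y axis) of the promoter peak nearest the main start for each of the 73 members in each of the 4 libraries; crosses below the zero line mark a library with no listed peak within 1 kb. Ccnd1, Ccnd2, Mcm2 and Cdc34b carry 4 crosses each, and the peaks of Cdk13, from 2155 to 2554 bp, have the widest mean.

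In the full lists, cyclins split by class. All A-, B-, E-, G-, L- and T-type symbols had a promoter peak in all 4 libraries, 13 of 16, and the 3 D-type cyclins did not. In the shortened lists Ccnb2, Ccnl2 and Ccnt1 were listed in 3, Ccnb1ip1 in 2, Ccnd3 in 1, and Ccnd1 and Ccnd2 in none. The A-type genes Ccna1, the germ cell form, and Ccna2, the somatic form, had peaks of 1108, 881, 1352 and 1105 bp and of 1078, 749, 1068 and 1066 bp. The mitotic cyclins Ccnb1 and Ccnb2 had 1618, 632, 1053 and 1201 bp and 850, 265, 892 and 598 bp. Both were narrowest in shLuc 1. The E-type cyclins, partners of Cdk2, had wide peaks in each library, 1589, 1244, 1303 and 1537 bp for Ccne1 and 1563, 1312, 1872 and 1632 bp for Ccne2. Ccng2, linked to cell cycle arrest, had 1675, 1464, 1624 and 1720 bp, and Ccng1, a p53 target, 1094, 576, 1039 and 836 bp. The splicing-associated cyclins Ccnl1 and Ccnl2 had 1670, 771, 1050 and 1429 bp and 864, 752, 665 and 917 bp. Ccnt1 and Ccnt2, partners of Cdk9 in transcription elongation, had 756, 739, 685 and 756 bp and 1237, 1107, 1186 and 1122 bp, and varied little. The coding gene 4930415O20Rik starts within 1 kb of a Ccnt1 start. Ccnb1ip1 had peaks of 716, 312, 728 and 552 bp, but only at its upstream start, which it shares with Parp2, and none within 1 kb of its main start.

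The D-type cyclins bind Cdk4 and Cdk6. Ccnd1 (chr7:144929931-144939925, minus strand) had no listed promoter peak. Its nearest peak lay 5941 bp from a start in shGFP, where it was 332 bp wide and overlapped a Ccnd1 exon. In shLuc 1 to 3 the nearest peaks lay 22940, 22625 and 22600 bp away, downstream of the main start and at the start of the gene annotated as LTO1. Ccnd1 was the only CpG-rich member with no promoter peak in any library, with 60.6% GC and a CpG ratio of 0.667. Ccnd2 (chr6:127125162-127152193, minus strand), with 55.7% and 0.536, had its nearest peaks 8169, 8376, 2686 and 8324 bp from a start in shGFP and shLuc 1 to 3. Ccnd3 (chr17:47505051-47599691, plus strand) had peaks of 637, 470 and 546 bp in shGFP, shLuc 1 and shLuc 2 at a downstream group of starts, centred 88545, 88474 and 88462 bp past the main start. No library listed a peak within 1 kb of the Ccnd3 main start, and in shLuc 3 the nearest peak lay 2266 bp from the most upstream Ccnd3 start, at the start of Taf8. By contrast the kinases had a peak in every library, with 519, 300, 717 and 744 bp for Cdk4 and 1298, 1003, 1147 and 1009 bp for Cdk6.

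The 250 bases upstream of the main start differ sharply in CpG between Ccnd2 (chr6:127151061-127151310, minus strand), with 6 CpG, and Ccne1 (chr7:38107535-38107784, minus strand), with 36 CpG, and are shown as a cyclin without and a cyclin with a peak in every library. Neither holds an E2F-like or CCAAT word, so both are in lower case throughout.
Ccnd2: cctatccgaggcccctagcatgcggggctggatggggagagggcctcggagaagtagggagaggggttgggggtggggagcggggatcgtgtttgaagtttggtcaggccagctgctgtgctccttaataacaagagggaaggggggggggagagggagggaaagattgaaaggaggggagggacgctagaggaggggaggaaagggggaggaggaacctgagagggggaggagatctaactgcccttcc
Ccne1: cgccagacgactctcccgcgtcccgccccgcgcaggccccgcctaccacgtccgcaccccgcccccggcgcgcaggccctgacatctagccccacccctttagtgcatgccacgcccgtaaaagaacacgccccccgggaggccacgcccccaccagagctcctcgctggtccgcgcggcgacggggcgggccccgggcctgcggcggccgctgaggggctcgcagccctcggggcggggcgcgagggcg
Both stretches lie on build GRCm38.p6. They are the CpG-poorest and the CpG-richest of the cyclin stretches that overlap no exon. Ccnb2 and Ccng1, with 11 CpG each, and Mcm10, with 4, also had a peak in every library.

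**Figure D4:**
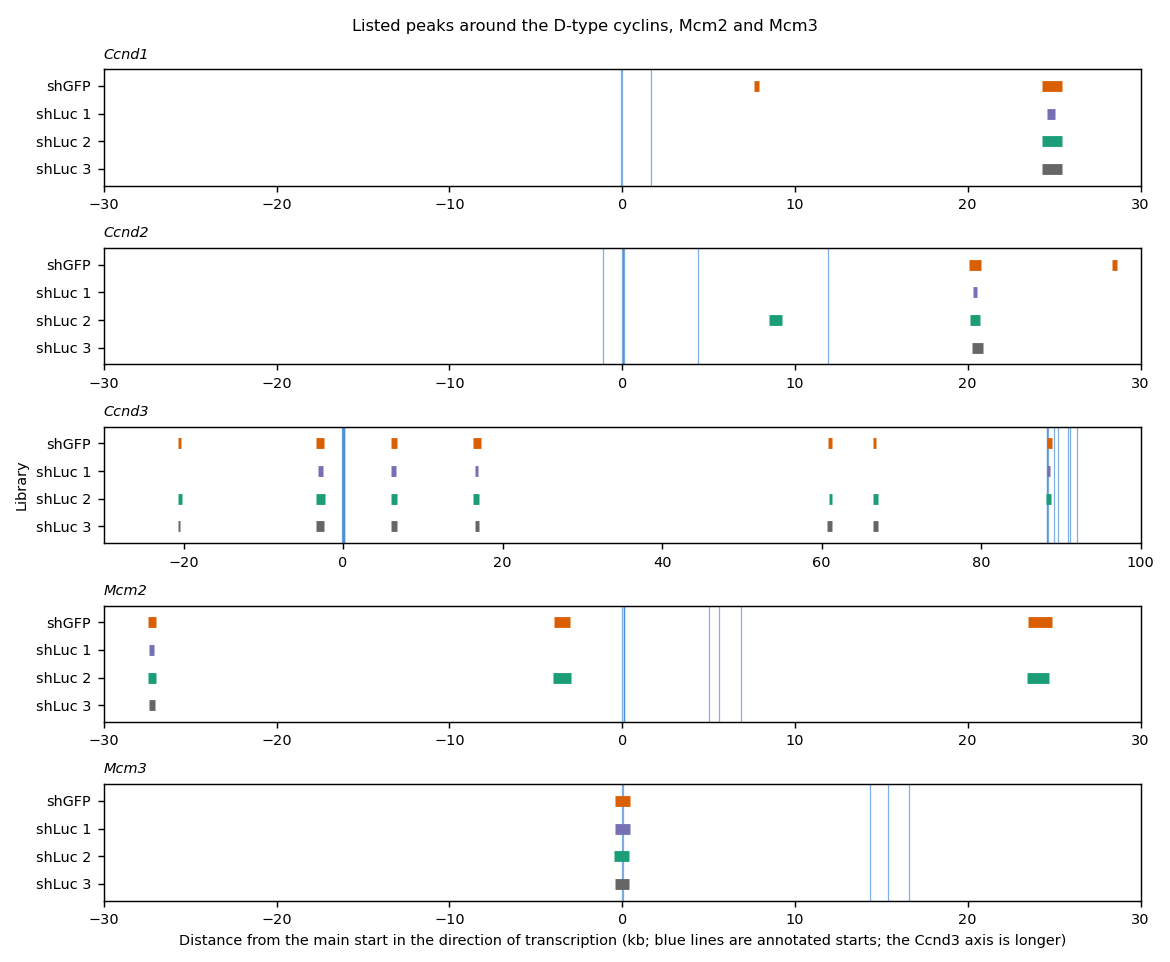
Listed peaks (horizontal bars, 1 row for each library) by distance in kb from the main start of Ccnd1, Ccnd2, Ccnd3, Mcm2 and Mcm3, in the direction of transcription; blue lines are annotated starts, and the Ccnd3 axis is longer. Mcm3 has a bar on its main start in all 4 rows, while no bar touches a start of Ccnd1, Ccnd2 or Mcm2, and for Ccnd3 a bar touches a start only at the downstream group, in 3 of 4 rows.

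Within 20 kb of any cyclin start, peaks were sorted into the cyclin's own promoter, the promoter of another gene (within 1 kb of its start) and distal peaks, which are neither. Own promoter peaks numbered 14 in shGFP and 14, 14 and 13 in shLuc 1 to 3, peaks at promoters of other genes 10 and 5, 9 and 9, and distal peaks 12 and 5, 12 and 6. At least 1 distal peak was listed for 8 of 16 cyclins in shGFP and for 4, 8 and 5 in shLuc 1 to 3, against 46.5%, 17.6%, 45.5% and 34.0% of all coding genes. The mean number of distal peaks per cyclin was 0.750, 0.312, 0.750 and 0.375, and per coding gene 0.669, 0.198, 0.650 and 0.439. Cyclins were thus close to all coding genes in distal peaks, unlike in promoter peaks, though the length searched was not matched. Their promoter shares were 87.5%, 87.5%, 87.5% and 81.2% in shGFP and shLuc 1 to 3. Those of CpG-rich coding genes, 90.9%, 77.9%, 90.6% and 84.5%, were higher in all libraries but shLuc 1. Libraries with longer lists had more distal peaks, and shGFP, with 12, had as many as shLuc 2.

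**Figure D5:**
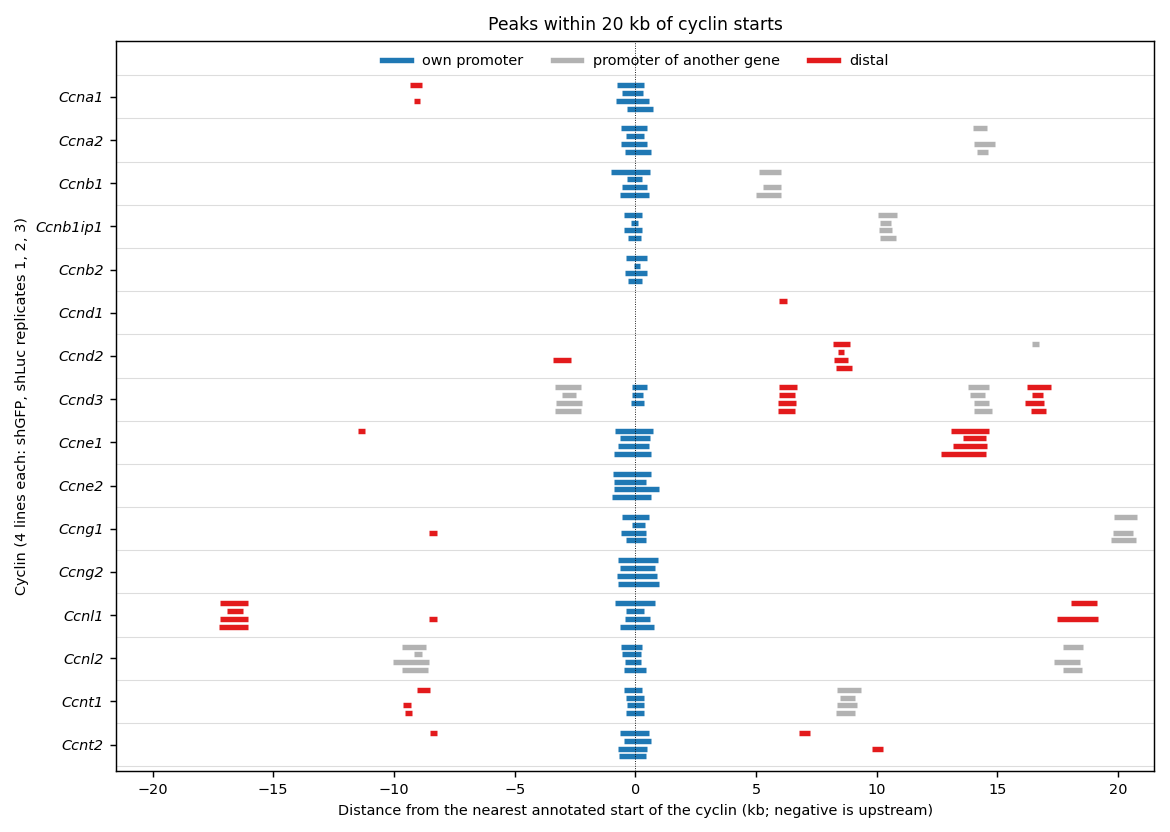
Peaks within 20 kb of the 16 cyclin genes by distance (kb, x axis) from the nearest annotated start of the cyclin, with 4 lines a gene for shGFP and shLuc 1, 2 and 3 from top to bottom; blue is the cyclin's own promoter, grey the promoter of another gene and red distal. Red bars in all 4 lines occur at Ccnd2, Ccnd3, Ccne1 and Ccnl1, and Ccnb2, Ccne2 and Ccng2 have no peak other than their own promoter peak.

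The distal peaks fell into 17 regions, of which 5 were listed in all 4 libraries. One overlapped an exon of Ccnd2 (chr6:127130181-127130983), lay 8169 bp from the nearest start, and was 719, 276, 596 and 648 bp wide. A pair lay in introns of Ccnd3, at chr17:47511152-47511921 with 727, 624, 740 and 703 bp and at chr17:47521394-47522469 with 1025, 442, 770 and 621 bp. Ccnd2 and Ccnd3 therefore held 3 of the 5 regions common to all lists, and Ccnd1 none. With its 19 starts Ccnd3 had the longest stretch searched, 83.9 kb, against 40.0 to 67.9 kb for the other cyclins. The remaining pair were intergenic. That of Ccne1 (chr7:38084726-38086720) began 12649 bp downstream of a start and measured 1562, 954, 1404 and 1892 bp, and that of Ccnl1 (chr3:65974281-65975500) lay 16032 bp upstream and measured 1179, 635, 1159 and 1197 bp. Their CpG ratios, 0.607 and 0.603, were the highest of the 17 regions. The middle 200 bases of each are shown on the plus strand with CpG in capitals, chr7:38085624-38085823 with 9 CpG and chr3:65974791-65974990 with 19.
Region near Ccne1: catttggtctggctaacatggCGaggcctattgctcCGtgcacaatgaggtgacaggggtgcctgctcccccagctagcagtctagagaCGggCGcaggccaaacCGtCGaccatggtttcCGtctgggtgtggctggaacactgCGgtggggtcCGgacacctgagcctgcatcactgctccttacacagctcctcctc
Region near Ccnl1: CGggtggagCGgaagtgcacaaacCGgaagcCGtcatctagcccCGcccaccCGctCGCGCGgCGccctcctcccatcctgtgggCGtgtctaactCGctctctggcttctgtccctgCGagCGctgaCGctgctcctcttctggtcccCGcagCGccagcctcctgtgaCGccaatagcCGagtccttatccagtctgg
The other 12 regions were found in 1 or 2 libraries and never in shLuc 1. Those in shGFP alone lay at Ccnd1, Ccne1, Ccnt1 and Ccnt2 (a pair), those in shLuc 2 alone at Ccnd2, Ccng1, Ccnl1 and Ccnt2, those shared by shGFP and shLuc 2 at Ccna1 and Ccnl1, and that shared by shLuc 2 and shLuc 3 at Ccnt1.

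Promoters of other genes within 20 kb of a cyclin also differed between lists. A peak at the start of Cenph, a kinetochore gene, lay 5138, 5288 and 5005 bp from Ccnb1 in shGFP, shLuc 2 and shLuc 3. A peak that held the starts of Hmmr, a spindle gene, and Nudcd2 lay 19826, 19769 and 19691 bp from Ccng1 in the same 3 libraries. The Exosc9 promoter near Ccna2 was likewise listed in these 3. In shLuc 1 no peak at these 3 neighbours was listed within 20 kb of the cyclin. The Hmmr peaks lay so near that limit that a narrower shLuc 1 peak there could fall outside the search. The promoters of Ttc5 near Ccnb1ip1, Kansl2 near Ccnt1, Mrpl20 near Ccnl2 and Taf8 near Ccnd3 were listed in all 4.

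Of the kinases, 17 of 17 had a promoter peak in shGFP and 14, 17 and 16 in shLuc 1 to 3. Cdk13, which phosphorylates RNA polymerase II, had the widest promoter peaks of all members by their mean, 2300, 2155, 2385 and 2554 bp, and also the most GC-rich promoter, at 77.5%. Among the Cdk genes, Cdk19, a kinase of the Mediator complex, came next with 1385, 1393, 1487 and 1530 bp, and Cdk9, the elongation kinase, with 1435, 1206, 1420 and 1428 bp. The core cell cycle kinases had narrower peaks, 997, 598, 960 and 1027 bp for Cdk1 and 1179, 423, 1258 and 1031 bp for Cdk2. The window of Cdk2 also holds the start of Pmel. Cdk10 was listed in shGFP (695 bp) and shLuc 2 (657 bp) only. Its nearest peak in shLuc 1 and shLuc 3 lay 6604 and 6564 bp away, at the start of Spata2l. Cdk15, with 832, 735 and 798 bp, and Cdk18, with 1385, 1158 and 1025 bp, were missing from shLuc 1 alone, and Cdk15 had the lowest CpG ratio of all members, 0.315. Cdk5, Cdk7, Cdk8, Cdk12, Cdk14, Cdk17 and Cdk20, the rest of the family, had a peak in all 4 libraries, from 444 bp (Cdk7 in shLuc 1) to 1417 bp (Cdk14 in shLuc 2). The start of Slc4a2 lies within 1 kb of a Cdk5 start.

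The Cdc symbols gather genes found in yeast screens, and 20 of 21 had a promoter peak in shGFP and 18, 20 and 19 in shLuc 1 to 3. The loader Cdc6 had narrow peaks, 527, 326, 468 and 500 bp, all upstream of its main start. Cdc7, the kinase that fires licensed origins, had 1167, 356, 809 and 1126 bp. The widest mean belonged to Cdc40, with 1647, 1637, 1645 and 1867 bp, and its window holds the start of Wasf1 too. Next came the phosphatase genes Cdc14b, with 1358, 892, 1712 and 1561 bp, and Cdc14a, with 2330, 400, 1990 and 424 bp. Cdc14a had the widest range of any member. In shLuc 1 it had 2 promoter peaks, of which the 400 bp are the one nearest the main start, and in shLuc 3 its peak did not cover a start but ended 763 bp from the nearest. The ubiquitin-conjugating gene Cdc34 had 995, 610 and 680 bp in shGFP, shLuc 1 and shLuc 2 and no promoter peak in shLuc 3, where the nearest was 19168 bp away. Its relative Cdc34b (chr11:94741782-94743033, plus strand) had none in any library, with the nearest peak 11284, 32075, 44411 and 44260 bp away. Cdc20b, a relative of the mitotic activator Cdc20, had 1389, 1356 and 932 bp and no promoter peak in shLuc 1. Cdc20 itself had 956, 910, 1313 and 1101 bp. The subunits of the anaphase-promoting complex that Cdc20 activates, Cdc16, Cdc23, Cdc26 and Cdc27, had a peak in all 4 libraries, with 1061, 546, 1072 and 1006 bp for Cdc16 and 1269, 714, 1365 and 1177 bp for Cdc27. The Cdk-activating phosphatases did too, with 1265, 324, 763 and 549 bp for Cdc25a, 864, 675, 983 and 871 bp for Cdc25b and 1219, 616, 1082 and 1298 bp for Cdc25c. Each of these was narrowest in shLuc 1, which also had the lowest median width over all coding genes, and Cdc25b varied least. Cdc37, Cdc42, Cdc73 and Cdc123 completed the set with a peak in every library, and Cdc37 was the most even of all Cdc genes, at 592, 601, 594 and 550 bp. Other coding genes also start within 1 kb of Cdc25b (Spef1), Cdc25c (Gm3550), Cdc26 (Prpf4), Cdc27 (Myl4), Cdc73 (B3galt2) and Cdc123 (Nudt5). The sequence upstream of Cdc34b (chr11:94741532-94741781, plus strand, GRCm38.p6) is shown as the CpG-poorest of the members without a peak whose sequence is printed here, with 1 CpG and 1 CCAAT word in capitals.
Cdc34b: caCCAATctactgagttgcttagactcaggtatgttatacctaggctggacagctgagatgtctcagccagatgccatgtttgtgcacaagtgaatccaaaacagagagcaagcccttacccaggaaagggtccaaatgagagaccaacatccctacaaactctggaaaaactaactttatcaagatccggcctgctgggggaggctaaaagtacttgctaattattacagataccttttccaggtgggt

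Promoter peaks of members were wider than those of all coding genes in 3 libraries and narrower in shLuc 1. The median widths were 1061, 660, 1039 and 1029 bp for members and 959, 703, 923 and 890 bp for all coding genes. The peak covered a start for all members with a promoter peak in shGFP and shLuc 2 and for 96.9% and 97% in shLuc 1 and shLuc 3, against 93.0% to 94.7% of coding genes. No member turned on the 1 kb limit, as the closest peak outside it lay 2266 bp from a start (Ccnd3 in shLuc 3) and the farthest one inside it 763 bp (Cdc14a in shLuc 3).

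Related genes were read from lists outside the symbol rule. Of 10 further cyclins, 10, 9, 10 and 9 had a promoter peak in shGFP and shLuc 1 to 3, with only Ccno missing from some lists. Of 7 CDK inhibitors the counts were 7, 5, 6 and 6, and Cdkn1c was listed in shGFP alone. Of 19 genes of the RB, E2F and DREAM group they were 17, 14, 18 and 17, and E2f4 was listed in shLuc 1 alone, although its nearest peaks in shGFP, shLuc 2 and shLuc 3 lay 1066, 1207 and 1133 bp from a start, just outside the 1 kb limit. For 12 other licensing and firing factors they were 11, 10, 12 and 11. There Cdt1, the partner of Cdc6, had peaks of 433, 1305 and 1010 bp in shLuc 1 to 3 and none in shGFP. Replication fork genes had 22, 16, 20 and 19 of 22, the anaphase-promoting complex 11, 10, 11 and 10 of 11, and checkpoint and mitotic kinases 14, 13, 13 and 13 of 14. In the order given, a peak in all 4 libraries was listed for 90%, 71.4%, 68.4%, 75%, 68.2%, 90.9% and 92.9% of the genes, against 84.9% of the members and 44.0% of all coding genes. No gene of these 7 lists lacked a promoter peak in every library, while 4 of the 73 members did.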

How the data were processed

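ATAC-seq peaks were read from 4 libraries of E14 ESCs. The authors deposited 1 peak list per library, with 3 columns that hold the chromosome, start and end of each peak, and no counts, height or score. The submitters' processing notes name bcl2fastq, Bowtie2, MACS2 and the mm10 build, without versions or settings. The study's methods describe keeping 1 best alignment per read and placing reads with several equally good positions at random. How reads were shifted for the transposase and the threshold of the peak caller are not given in the sources used here.

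Transcript starts were taken from GENCODE mouse release 21 (GRCm38), and sequences from the GRCm38.p6 assembly. A promoter peak lay within 1 kb of any annotated start. The main start was that of the best APPRIS principal transcripts with most transcripts within 100 bp. CpG content was read in 500 bp on either side of it. Motif words were sought on both strands in the 250 bases upstream of the main start of every autosomal coding gene. Words of 50 bases were counted over the genome. Scripts (Python 3.11.15, numpy 2.4.6, numba 0.67.0, matplotlib 3.10.9) were tested on simulated data.

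Groups came from sample titles, and no test was run, since 1 library stood against 3. The members and lists were chosen with earlier results of these data known. Named were members with a peak in no library or in an unusual set of libraries, all Mcm2 to Mcm7, Orc, Gins and cyclin genes, and the 3 Cdk and 3 Cdc genes with the widest peaks. Further members were chosen after their values were seen. Alternatives covered the window, the starts used, the length of the lists and each shLuc library left out. Promoter sequences that overlap an exon are not shown.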

Additional observations from a re-analysis of the deposited data

How the results depend on the processing

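Over 14 results and 16 alternatives, 154 comparisons were made, of which 119 stayed within a set limit and 35 moved. For shLuc mean shares and gaps the limit was the SD of the shLuc libraries, and for counts a factor of 1.5. For the shGFP share and gap it was taken from a 95% Wilson interval of the shGFP share over the 73 members (86.7% to 97.8%). That interval counts genes as independent and does not measure spread between libraries. The gap between members and all coding genes stayed positive throughout. With a window of 5 kb, 2 members had a peak in no library and the gap between members and all coding genes was 30.8 points over shLuc (main value 35.5). With the widest 50% of each list, the members' shares were 86.3% in shGFP and 71.7% over shLuc, the number of members with a peak throughout was 37 and without any 8, and the gap over shLuc was 29.5 points. With all lists shortened to the 17860 widest peaks, the shares were 80.8% in shGFP and 81.3% over shLuc, so that shGFP was no longer the higher. There 45 members in place of 62 had a peak in every list, and the gap was 32.4 points in shGFP and 33.6 over shLuc. For CpG-rich genes only, an alternative chosen after seeing the data, as were principal starts and genes without a neighbouring start, the gap was 7.34 points in shGFP (main value 32.6) and 11.6 over shLuc. On principal starts Ccnb1ip1 lost its peak in all 4 libraries and Mcm7 in 1. Distal cyclin peaks, 12 in shGFP and 7.67 over shLuc, were 7 and 4.33 within 10 kb, 25 and 19 within 50 kb, and 6 and 4.00 among the widest 50%. With equal lists there were 4 in shGFP and 5.33 over shLuc, which turns their order. The smaller windows and shorter lists hold fewer peaks by construction. Leaving out each shLuc library gave 89.0% to 92.5% for the shLuc share, 62 to 66 members with a peak throughout, 4 without any, a gap of 33.6 to 36.7 points and 5.50 to 9 distal peaks. No paired analysis was possible because shGFP has a single library and no result comes from a test. Depth is unknown, so a peak that was not listed may be below what a library could show, and random placement of repeated reads bears on peaks in repeats.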
